A study of Mus musculus with 8 samples.

Results

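Binding of the glucocorticoid receptor (GR) was examined at 7 genes of the glucocorticoid feedback loop and of its classic target set, namely Fkbp5, Fkbp4, Nr3c1, Hsd11b1, Tsc22d3, Sgk1 and Zbtb16. The genes were chosen by name, out of 21938 protein-coding genes. The GR peak lists of 6 liver libraries were merged into 51431 sites wherever their regions overlapped, and the 81 sites centred within 50 kb of the annotated start of a member were taken. In mm10, the starts came from GENCODE M21. Of the 8394 rows of a FOXO1 peak list, 19 were centred within the same distance.

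Chromatin immunoprecipitation sequencing (ChIP-seq) had been performed on livers of male C57BL/6J mice on regular chow, with 2 libraries in each of 3 groups. Night-fed mice were the controls (ctrl.), calorically restricted mice (cal. res.) formed another group, and the remaining group was night-fed and supplemented with corticosterone (CORT), the main glucocorticoid of mice, given by daily injection according to the methods of the study. Livers were collected at the onset of the dark phase. The labels name no genetic change in any group, they name no vehicle for ctrl., and they give no ages. FOXO1, a forkhead factor that insulin signaling keeps out of the nucleus, had been precipitated from cal. res. livers, and the authors merged those 2 libraries before calling peaks, so the FOXO1 list has no replicate spread and no counterpart in ctrl. or CORT.

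GR is held in the cytosol by HSP90 and its co-chaperones until hormone binds, and it then enters the nucleus and binds glucocorticoid response elements (GREs), which are inverted repeats of a short half-site. The loop closes on itself at several points. FKBP5 is a co-chaperone that lowers the affinity of the receptor for hormone and is itself a textbook target of GR, whereas FKBP4 favors hormone binding and nuclear transport. Nr3c1 encodes GR, and Hsd11b1 encodes the liver reductase that regenerates active corticosterone from its inert keto form. Tsc22d3 (GILZ), Sgk1 and Zbtb16 (PLZF) are induced by glucocorticoids in many tissues and encode an anti-inflammatory leucine zipper protein, a serine/threonine kinase and a zinc finger transcription factor.

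Values were read as follows. A region is a peak interval of 1 library, and a site was listed in a library that had a region there and held by a group when both of its libraries did. Fold enrichment is comparable only within a list, so each region was given the percentile of its fold enrichment within its own list, with the strongest region of a site standing for the site. Sites are named by the distance of their centre from the gene start, with negative values upstream. The lists held between 12458 regions (ctrl. replicate 2) and 39136 regions (CORT replicate 2), and ctrl. replicate 1 held 36234. Read totals were not analysed here, so depth is unknown. Library names fell into 2 styles. One covered ctrl. replicate 2 and both cal. res. libraries, and the other covered ctrl. replicate 1 and both CORT libraries, so cal. res. and CORT cannot be told apart from their name series. Among marker genes of liver cells, each group held a site near 8 of 8 hepatocyte genes, 1 of 4 Kupffer cell genes and 1 of 3 cholangiocyte genes. Of 3 sinusoidal endothelial genes, ctrl. and cal. res. held a site near 2 and CORT near 3, and of 3 genes of other organs, ctrl. and cal. res. held a site near 0 and CORT near 1 (Myh6). In whole liver, binding in fewer cells and weaker binding per cell cannot be told apart.

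The sequences at the summits come first, since the members differed in what lay there. Each line gives 150 bases of the plus strand of mm10 (RefSeq GRCm38) around the summit of the highest-ranked library, with capitals for a palindromic GRE, GNACANNNTGTNC. The windows show a high-ranking site of each member but Nr3c1, a site listed only in CORT (Fkbp5 +19.3 kb), and a Fkbp5 and a Sgk1 site that lay beyond the window of 50 kb.
Fkbp5 -4.1 kb site, chr17:28518111-28518260: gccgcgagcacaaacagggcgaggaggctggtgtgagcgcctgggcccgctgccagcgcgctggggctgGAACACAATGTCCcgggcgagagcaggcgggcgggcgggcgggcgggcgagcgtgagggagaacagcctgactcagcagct
Fkbp5 +97.3 kb site, chr17:28420264-28420413: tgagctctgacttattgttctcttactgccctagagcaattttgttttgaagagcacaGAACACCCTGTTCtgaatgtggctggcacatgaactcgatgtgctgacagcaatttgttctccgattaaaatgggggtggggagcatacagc
Sgk1 +111.7 kb site, chr10:21993644-21993793: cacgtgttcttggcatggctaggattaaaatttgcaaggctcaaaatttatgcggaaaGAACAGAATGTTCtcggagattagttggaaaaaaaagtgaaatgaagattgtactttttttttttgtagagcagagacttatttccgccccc
Fkbp5 +19.3 kb site, chr17:28498263-28498412: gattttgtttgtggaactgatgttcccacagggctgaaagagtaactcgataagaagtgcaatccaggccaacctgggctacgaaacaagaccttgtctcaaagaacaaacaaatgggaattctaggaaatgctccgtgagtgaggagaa
Zbtb16 +35.5 kb site, chr9:48800703-48800852: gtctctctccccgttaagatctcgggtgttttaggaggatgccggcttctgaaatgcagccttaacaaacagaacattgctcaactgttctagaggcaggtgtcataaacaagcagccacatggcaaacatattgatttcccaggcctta
Hsd11b1 -25.7 kb site, chr1:193290067-193290216: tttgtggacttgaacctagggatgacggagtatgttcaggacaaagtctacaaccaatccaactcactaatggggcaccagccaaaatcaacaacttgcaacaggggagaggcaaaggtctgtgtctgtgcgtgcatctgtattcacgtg
Tsc22d3 +32.8 kb site, chrX:140567886-140568035: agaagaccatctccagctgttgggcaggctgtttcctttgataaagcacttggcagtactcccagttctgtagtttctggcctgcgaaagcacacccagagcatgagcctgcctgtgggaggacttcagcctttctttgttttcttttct
Fkbp4 +0.3 kb site, chr6:128437910-128438059: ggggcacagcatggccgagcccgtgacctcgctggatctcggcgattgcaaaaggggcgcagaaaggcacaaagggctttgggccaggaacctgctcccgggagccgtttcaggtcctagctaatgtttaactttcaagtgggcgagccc

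A palindromic GRE lay within 100 bp of the top summit in 3 of the 81 sites, namely Fkbp5 -4.1 kb, Hsd11b1 +36.3 kb and Zbtb16 +11.3 kb, against 1.89% of all sites. This motif was searched on both strands. Among the 14 member sites listed in all 6 libraries, 1 held it there, against 4.52% of such sites. The commoner half-site AGAACA was found at 11 of the 81 sites (18.4% of all sites), the forkhead motif TGTTTAC at 2 (5.19%), the STAT motif TTCNNNGAA at 6 (8.16%), the C/EBP motif TTGCNNAA at 12 (15.1%) and the E-box CACGTG at 3 (4.72%), each within the same 200 bp and on both strands. GRE words near summits of the members are given next, though not all of them, as 15 bases of the plus strand, with the fixed letters of the palindrome in capitals. Both Tsc22d3 sites among them lie past the end of that gene.
Fkbp5 -4.1 kb site, summit at -0.66 kb, chr17:28518179-28518193: gGaACAcaaTGTcCc
Fkbp5 -4.1 kb site, summit at -5.65 kb, chr17:28523177-28523191: aGaACAtccTGTgCc
Fkbp5 +75.2 kb site, chr17:28442419-28442433: aGaACAagcTGTtCt
Fkbp5 +97.3 kb site, chr17:28420321-28420335: aGaACAcccTGTtCt
Sgk1 +111.7 kb site, chr10:21993701-21993715: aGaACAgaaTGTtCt
Tsc22d3 +94.4 kb site, chrX:140505965-140505979: gGtACAgaaTGTaCc
Tsc22d3 +92.9 kb site, chrX:140507821-140507835: tGaACAgtgTGTcCc
Zbtb16 +99.4 kb site, chr9:48740272-48740286: tGtACAtacTGTaCc
Zbtb16 +11.3 kb site, chr9:48824931-48824945: gGgACAaagTGTaCc
Hsd11b1 -47.2 kb site, chr1:193310907-193310921: gGgACAgaaTGTtCt
The words at Fkbp5 +75.2 kb, Fkbp5 +97.3 kb and Sgk1 +111.7 kb had 0 mismatches to the full consensus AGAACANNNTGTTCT, which occurred at 0.0642% of all sites. The word at -0.66 kb from the Fkbp5 start had 3 mismatches and the word at -5.65 kb had 2, and the centre of each fell on a GR summit, at a distance of 0 bp.

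The first question was whether GR was present at these genes in every feeding state. It was at 6 of the 7, and 73.2% of protein-coding genes had any site. Fkbp5, Fkbp4, Nr3c1, Hsd11b1, Tsc22d3 and Zbtb16 each had at least 1 site held by all 3 groups, which was true of 37.9% of protein-coding genes. Fkbp5 had 22 sites, Hsd11b1 18, Zbtb16 15, Fkbp4 10, Nr3c1 8 and Tsc22d3 8, where the median gene had 3. Sgk1 had 0 within 50 kb of its annotated start, and this is taken up at the end. The ctrl. group held 17 of the 81 sites (21.4% of all sites), cal. res. held 25 (27.9%) and CORT held 32 (43.7%). As shares of the 81 sites these counts lay close to the background. All 3 groups held 14 sites (15.7%). A further 38 sites were listed in 1 library (37.4%), and 24 of them in CORT replicate 2 alone (16.9%), the longest list.

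**Figure D1:**
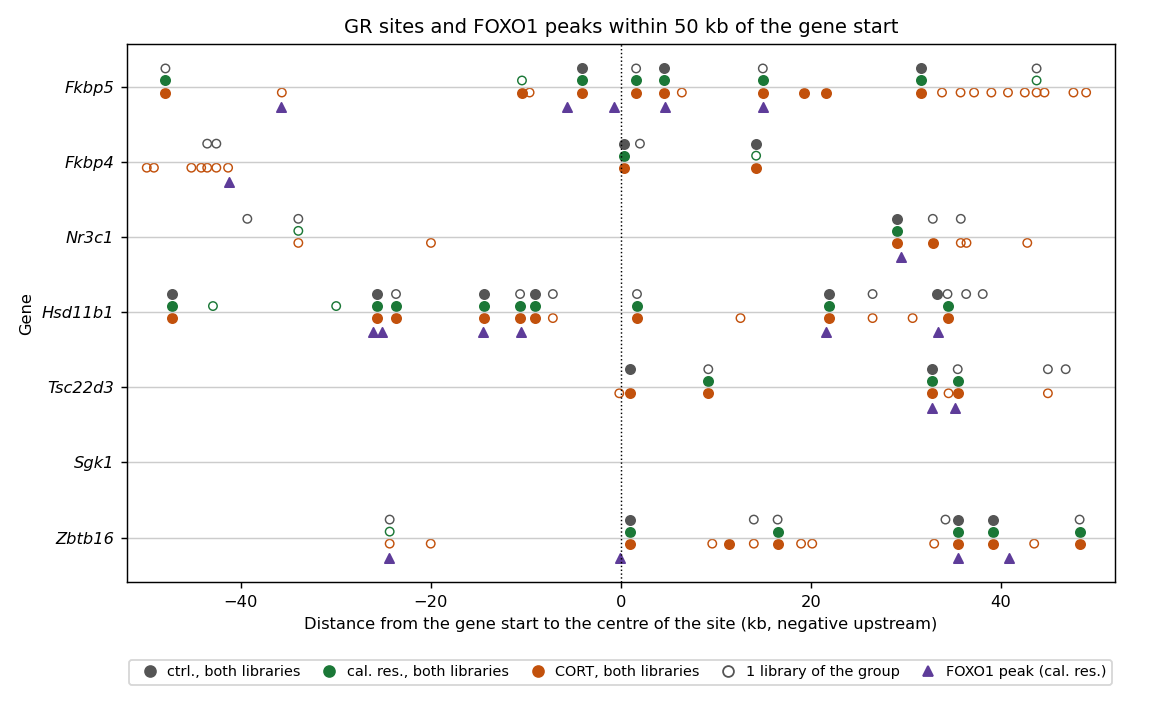
GR sites near each gene, by distance from the gene start to the centre of the site (kb). Filled points mark a group with a region in both libraries, open points a group with a region in 1, and triangles FOXO1 peaks from cal. res.; Sgk1 has none, and open CORT points crowd the gene side of Fkbp5.

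Most member sites gained relative to ctrl. were listed in 1 of the ctrl. libraries. The cal. res. group held 11 member sites that ctrl. did not hold (11.5% of all sites), and all 11 were listed in ctrl. replicate 1. The CORT group held 16 that ctrl. did not hold (24.3%), and 12 of these were listed in ctrl. replicate 1. Of the 81 sites, 11 were listed in every library but ctrl. replicate 2 (8.64% of all sites), the shortest list. Across the genome, 5923 sites were held by cal. res. and not by ctrl., and 12522 by CORT and not by ctrl. Both sets include the 4445 sites listed in every library but ctrl. replicate 2. The full share of gained sites listed in ctrl. replicate 1 was not computed over all sites, so the member counts are not particular to these genes. Without ctrl. replicate 2, ctrl. held 45 sites. No member site was listed in both cal. res. libraries and in no other, a pattern shown by 0.119% of all sites.

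Fkbp5 (ENSMUSG00000024222.17, chromosome 17, 28399094 to 28517527, minus strand) carried the GR site with the highest mean percentile among the 81 within 50 kb of a gene start. Its -4.1 kb site, at chr17:28516983-28526327, was 9345 bp long and joined several summits upstream of the gene. Its percentiles were 99.98 and 99.96 for ctrl., 99.98 and 99.98 for cal. res. and 99.96 and 99.90 for CORT. The fold enrichment behind them was 124 and 72.1 for ctrl., 183 and 130 for cal. res. and 115 and 107 for CORT. All 6 lists placed this Fkbp5 site near their top, ctrl. overlapped both other groups, and both cal. res. percentiles lay slightly above both of CORT.

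Within the -4.1 kb site, 2 summits recurred in all 6 libraries. Percentiles of summits, here and below, were taken among all rows of a list, where a region can have several. They can therefore differ slightly from those of sites. The summit at -0.66 kb from the gene start, which carried a GRE, had percentiles of 99.98 and 99.97 for ctrl., 99.99 and 99.98 for cal. res. and 99.97 and 99.46 for CORT. A FOXO1 summit lay 9 bp from it. The summit at -5.65 kb, with the other GRE, had percentiles between 98.7 and 99.8, and a FOXO1 summit lay 16 bp from it. Between them, a summit at -1.54 kb was listed in 5 libraries, with percentiles of 82.6 for ctrl. replicate 1, 97.6 and 93.6 for cal. res. and 99.7 and 99.9 for CORT, and it was not listed in ctrl. replicate 2. Summits at -3.16 kb, -4.23 kb and -8.05 kb were listed in both CORT libraries and in no other, with percentiles between 66.1 and 94.0.

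Downstream of the start, the intronic +4.5 kb site (chr17:28511525-28514483) was also near the top of every list. Its percentiles were 99.89 and 99.67 for ctrl., 99.83 and 99.87 for cal. res. and 99.95 and 99.99 for CORT. Both CORT values lay above all 4 others. The +31.6 kb site (chr17:28484787-28487116), which lies 0.142 kb from another annotated start of Fkbp5, had percentiles of 58.7 and 80.9 for ctrl., 67.2 and 32.1 for cal. res. and 87.0 and 89.0 for CORT. CORT was again above the other groups, which overlapped each other. Differences were tested with limma on normal scores, the percentiles turned into standard normal quantiles, at the 8097 sites listed in all libraries. At +31.6 kb the CORT score exceeded ctrl. by 0.63 ± 0.49 (SE, n = 2 per group; limma, adjusted p = 0.793) and at +4.5 kb by 0.59 ± 0.43 (limma, adjusted p = 0.792), where the median of all 8097 sites moved by 0.32. Neither passed the threshold of 0.05.

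Other Fkbp5 sites were listed in CORT alone. The intronic +19.3 kb site (chr17:28497948-28498603) had percentiles of 94.6 and 98.4 in CORT, with fold enrichments of 21.6 and 35.0, and was listed in no ctrl. or cal. res. library. The +21.6 kb site (chr17:28495561-28496320) had percentiles of 80.4 and 84.8 in CORT and was absent from the other 4 lists. Neither site was named by a rule, and both were chosen with their values in view. Listing in both CORT libraries and in no other was found at 3 of the 81 member sites and at 1563 sites (3.04%) across the genome. The list of ctrl. replicate 1 was longer than that of CORT replicate 1 and held neither the +19.3 kb nor the +21.6 kb site. When every list was limited to the same number of regions, both sites remained in both CORT libraries and in no other. No test applies to absence from a list, and the part of list length or depth in it was not tested. The CORT libraries share their name series with ctrl. replicate 1 only.

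A further 12 Fkbp5 sites were listed in CORT replicate 2 alone, most of them weak and in the gene, at percentiles from 4.46 to 51.8. The -47.9 kb and +14.9 kb sites were listed in every library but ctrl. replicate 2. Percentiles at -47.9 kb were 74.2 for ctrl. replicate 1, 70.4 and 75.4 for cal. res. and 88.7 and 72.2 for CORT. At +14.9 kb, which overlapped FOXO1, they were 84.2 for ctrl. replicate 1, 68.1 and 42.3 for cal. res. and 83.3 and 95.9 for CORT.

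Regions near Fkbp5 numbered 8 and 5 for ctrl., 10 and 7 for cal. res. and 14 and 23 for CORT. Both CORT libraries lay above all others, and ctrl. and cal. res. overlapped. CORT exceeded ctrl. by 12 regions (18.5 ± 6.36 against 6.5 ± 2.12, SD, n = 2 each; two-sided exact permutation test, p = 0.333, the smallest p that 2 against 2 allows; adjusted p = 1 over 14 tests). Across the genome, 9.91% of genes had more regions in both CORT libraries than in both of ctrl., and 0.0729% had a difference at least as large as that of Fkbp5. Without CORT replicate 2 the difference was 7.5. Within the name series of ctrl. replicate 1 the counts were 8 in ctrl. against 14 and 23 in CORT, and within the other 5 in ctrl. against 10 and 7 in cal. res. At equal list lengths, the counts were 5 and 5 for ctrl., 7 and 6 for cal. res. and 10 and 9 for CORT.

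**Figure D2:**
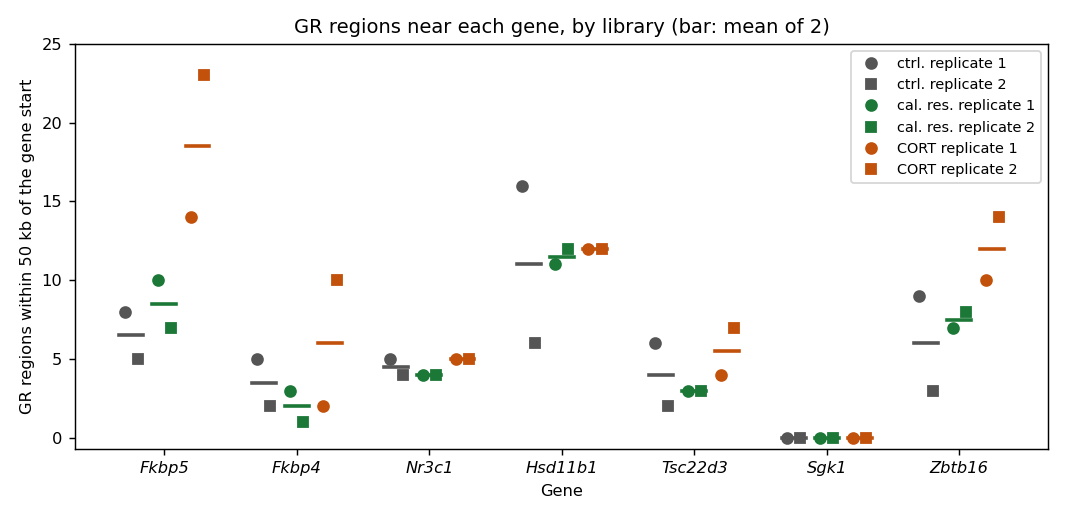
GR regions centred within 50 kb of each gene start (count per library). Points are libraries and bars the mean of the 2 libraries of a group; the CORT libraries stand at 14 and 23 for Fkbp5 and at 10 and 14 for Zbtb16, above ctrl. in both genes.

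Fkbp4 (ENSMUSG00000030357.10, chromosome 6, 128429735 to 128438677, minus strand) had 1 site listed in all 6 libraries, at its promoter (chr6:128437426-128439298, centre +0.3 kb). Percentiles were 85.03 and 83.4 for ctrl., 81.0 and 22.0 for cal. res. and 90.6 and 85.4 for CORT. The 4 ctrl. and CORT values lay close together, both cal. res. values lay below them, and the cal. res. replicates differed widely. The cal. res. score differed from ctrl. by -0.95 ± 0.56 (SE, n = 2 per group; limma, adjusted p = 0.826). This Fkbp4 site did not overlap FOXO1. The +14.2 kb site, near the start of Itfg2, was held by ctrl. (47.8 and 6.5) and CORT (29.0 and 80.3) and listed in 1 cal. res. library (5.6). Regions near Fkbp4 numbered 5 and 2 for ctrl., 3 and 1 for cal. res. and 2 and 10 for CORT, so that all groups overlapped.

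At Nr3c1 (ENSMUSG00000024431.15, chromosome 18, 39410545 to 39519421, minus strand) cal. res. had the lowest ranks. Its +29.1 kb site, at 39488701 to 39491937, was 3237 bp long and lay 0.355 kb from an internal annotated start of the receptor gene. Percentiles were 82.9 and 87.6 for ctrl., 30.1 and 24.7 for cal. res. and 85.7 and 82.4 for CORT. Both cal. res. libraries lay far below all 4 others, and ctrl. and CORT overlapped. The fold enrichments behind them were 10.4 and 7.40 for ctrl., 4.55 and 3.89 for cal. res. and 13.8 and 10.8 for CORT. Within the name series of the cal. res. libraries, the ctrl. library stood at 87.6.

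The cal. res. score at this Nr3c1 site differed from ctrl. by -1.66 ± 0.42 (SE, n = 2 per group) and from CORT by -1.60 ± 0.42, where the median of all sites moved by -0.04 and -0.33. Neither difference passed limma's test over 8097 sites (adjusted p = 0.597 and 0.168, against 0.00297 and 0.00365 unadjusted in limma). Over the 12 alternatives the adjusted p from limma ranged from 0.051 to 0.9998 for the first and from 0.0406 to 0.713 for the second, and only the second fell under 0.05, without ctrl. replicate 1. The mean percentile of cal. res. minus that of ctrl. was -57.9 points, and 44 of the 8097 sites had a difference as low (0.543%). Both cal. res. values lay below both of ctrl. at 20.6% of these sites and below both of CORT at 46.0%, and the gap of 52.4 points up to the lowest of the other libraries was matched or exceeded at 11 sites (0.136%). Among the member sites listed in all libraries, the place by difference and by gap was computed for this one only, with its values in view. These shares describe the site and are not a test of it.

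The Nr3c1 site was not 1 sharp summit. The summit shared by most libraries, at +29.49 kb, was listed in 5 of them, with percentiles of 84.0 and 87.9 for ctrl., 5.5 and 24.3 for cal. res. and 73.7 for CORT replicate 1. CORT replicate 2 had its summits elsewhere in the site, including 1 of percentile 83.2 at +27.92 kb. A FOXO1 summit lay 22 bp from the +29.49 kb summit, and its FOXO1 peak was weak, at percentile 1.03 of the FOXO1 list. The neighboring +32.8 kb site was listed in ctrl. replicate 1 (9.1) and held by CORT (38.8 and 30.6), and it was listed in neither cal. res. library. Regions near Nr3c1 numbered 5 and 4 for ctrl., 4 and 4 for cal. res. and 5 and 5 for CORT. At equal list lengths they numbered 2 and 4 for ctrl., 0 and 0 for cal. res. and 1 and 1 for CORT, a cal. res. minus ctrl. difference of -3 in place of -0.5, and with q of at most 1e-05 they numbered 2 and 1 for ctrl., 0 and 0 for cal. res. and 2 and 2 for CORT.

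Hsd11b1 (ENSMUSG00000016194.14, chromosome 1, 193221634 to 193264075, minus strand) had 5 sites listed in all 6 libraries, the most of the set, which 2.43% of genes matched or exceeded. The -25.7 kb site (chr1:193289011-193290450) had percentiles of 90.9 and 46.4 for ctrl., 90.6 and 79.4 for cal. res. and 78.4 and 83.8 for CORT. The +21.9 kb site (chr1:193241596-193242744), 0.459 kb from an internal Hsd11b1 start, had 79.8 and 59.0 for ctrl., 85.1 and 82.7 for cal. res. and 70.0 and 82.5 for CORT. At each of the 5 sites the lowest value came from ctrl. replicate 2 or cal. res. replicate 2, the shortest lists. At -9.0 kb both cal. res. values, 48.1 and 28.01, lay below the 4 others, the lowest of which was 48.7. Limma's adjusted p for the 5 sites lay between 0.943 and 0.961 for cal. res. against ctrl. and between 0.811 and 0.991 for CORT against ctrl.

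Several Hsd11b1 sites lay in introns of Lamb3, which overlaps it, and of its 18 sites 9 had a start of Hsd11b1 as the nearest annotated start. The -9.0 kb site lies 0.163 kb from the start of G0s2, an inhibitor of lipolysis. FOXO1 overlapped 5 Hsd11b1 sites, at -25.7 kb, -14.4 kb, -10.6 kb, +21.9 kb and +33.3 kb, and 1.20% of genes had as many or more. The forkhead motif TGTTTAC was present at +21.9 kb. The +33.3 kb site was listed in ctrl. alone, at percentiles 12.9 and 11.8, although its FOXO1 peak came from cal. res. livers, and 0.161% of all sites were listed in both ctrl. libraries and in no other. Regions near Hsd11b1 numbered 16 and 6 for ctrl., 11 and 12 for cal. res. and 12 and 12 for CORT. The 2 ctrl. libraries spanned all the others.

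Tsc22d3 (ENSMUSG00000031431.13, chromosome X, 140539528 to 140600659, minus strand) had 1 site listed in all 6 libraries, in an intron at +32.8 kb (chrX:140567562-140568240). Percentiles were 92.5 and 85.7 for ctrl., 93.4 and 89.6 for cal. res. and 58.4 and 85.5 for CORT. Both CORT values lay below all 4 others, the upper one by less than 1 point, and ctrl. and cal. res. overlapped. CORT differed from ctrl. by -0.62 ± 0.47 normal score units (SE, n = 2 per group; limma, adjusted p = 0.792). Its summits in the 6 libraries fell within 20 bp of each other, and a FOXO1 summit lay 9 bp away. The promoter site of Tsc22d3, centred at +1.0 kb (chrX:140598932-140600422), was held by ctrl. (69.3 and 64.1) and CORT (78.6 and 51.8) and listed in neither cal. res. library, a pattern found at 1.04% of all sites. It was chosen with its values in view. At equal list lengths it was listed in both ctrl. libraries and CORT replicate 1 only, so CORT no longer held it. Its fold enrichment was 7.71 and 5.13 in ctrl. and 11.1 and 5.35 in CORT.

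Zbtb16 (ENSMUSG00000066687.5, chromosome 9, 48654297 to 48836222, minus strand) had 3 sites listed in all 6 libraries, and FOXO1 overlapped each. At the promoter (chr9:48833586-48837016, centre +0.9 kb) percentiles were 94.1 and 90.0 for ctrl., 78.4 and 82.0 for cal. res. and 98.2 and 97.7 for CORT. Here the groups did not overlap at all, with CORT highest and cal. res. lowest. Among all sites listed in all 6 libraries, CORT lay wholly above ctrl. at 26.6%. In the same set, cal. res. lay wholly below ctrl. at 20.6% and wholly below CORT at 46.0%. The share of sites with this full order was not computed. The cal. res. score differed from CORT by -1.20 ± 0.42 (SE, n = 2 per group; limma, adjusted p = 0.232, and 0.0611 to 0.841 over 14 alternatives), where the median of all sites moved by -0.33. The intronic +35.5 kb site (chr9:48799791-48801590) stood at 99.5 and 90.7 for ctrl., 97.5 and 96.8 for cal. res. and 97.8 and 95.2 for CORT, with all groups overlapping. It held the strongest FOXO1 peak near any member, with a fold enrichment of 27.4 at percentile 99.4 of the FOXO1 list, 16 bp from the GR summit.

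Further into the Zbtb16 gene, the +39.1 kb site (chr9:48794616-48799577) had percentiles of 74.3 and 19.8 for ctrl., 87.1 and 80.6 for cal. res. and 92.8 and 84.7 for CORT. All 4 values of cal. res. and CORT exceeded both of ctrl., and the lower ctrl. value came from the shortest list. Its FOXO1 summit lay 24 bp from a GR summit at +40.92 kb, which ctrl. replicate 2 did not list. The GR summit shared by all 6 libraries, at +37.95 kb, was 2521 bp from the nearest FOXO1 summit. The CORT score exceeded ctrl. by 1.34 ± 0.55 (SE, n = 2 per group; limma, adjusted p = 0.756, and 0.0205 to 0.999 over 13 alternatives), and it was 2.09 without ctrl. replicate 1 and 0.59 without ctrl. replicate 2. The +11.3 kb site, with a GRE 12 bp from its nearest summit, was listed in CORT alone (41.2 and 47.4) and dropped out of every library at equal list lengths. Regions near Zbtb16 numbered 9 and 3 for ctrl., 7 and 8 for cal. res. and 10 and 14 for CORT. Both CORT counts exceeded all others, by 6 over ctrl. (12 ± 2.83 against 6 ± 4.24, SD, n = 2 each; exact permutation test, p = 0.333; adjusted p = 1), or by 3 without ctrl. replicate 2 and by 9 without ctrl. replicate 1.

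**Figure D3:**
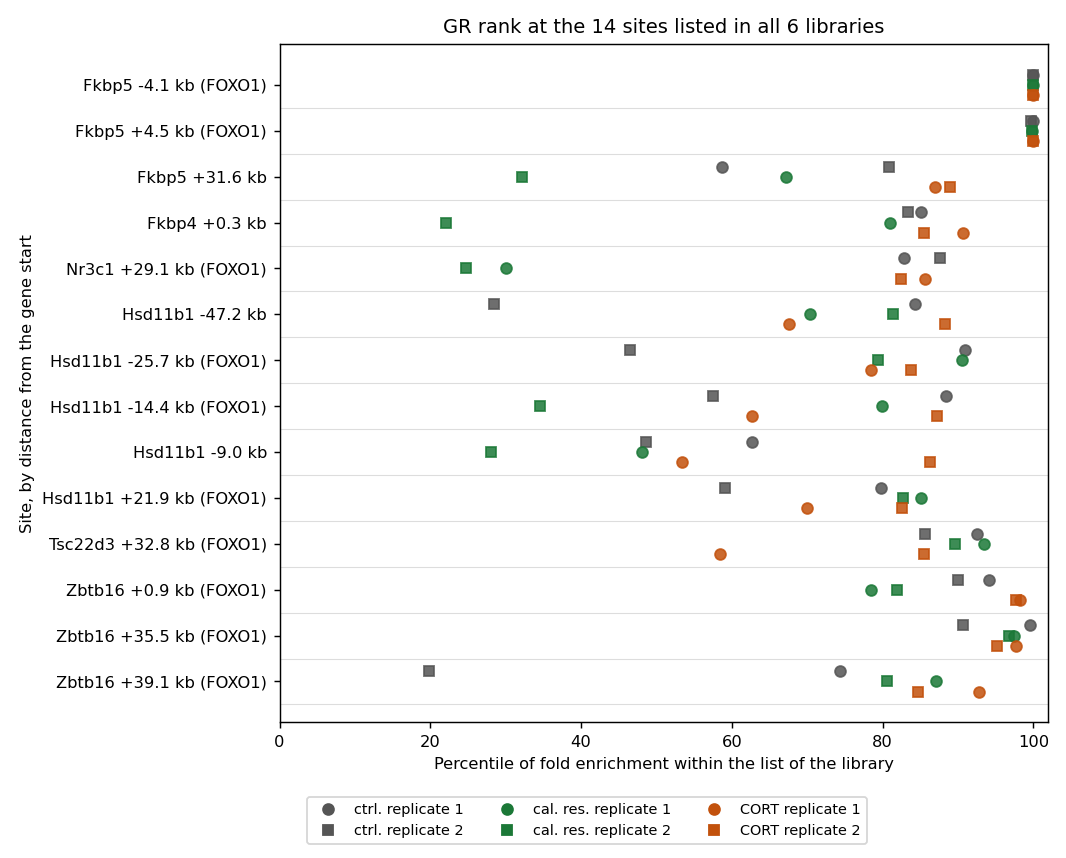
Percentile of GR fold enrichment within each list at the 14 member sites listed in all 6 libraries. Points are libraries and FOXO1 marks sites that overlap a FOXO1 peak; Fkbp5 -4.1 kb and +4.5 kb stay at 99.67 or above throughout, while cal. res. stands at 30.1 and 24.7 at Nr3c1 +29.1 kb.

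No member site passed the rank test in any comparison. Limma called 0 of the 8097 common sites at an adjusted p under 0.05 in each of the 3 comparisons, while 550 (6.79%) had an unadjusted p under 0.05 for cal. res. against ctrl., 513 (6.34%) for CORT against ctrl. and 1186 (14.6%) for cal. res. against CORT. On log2 fold enrichment centred on the median site, limma called 5, 13 and 239 sites, and no member was among them. Of the 14 member sites, cal. res. lay wholly above ctrl. at 2 (11.5% of the common sites) and below at 4 (20.6%), CORT lay above ctrl. at 5 (26.6%) and below at 1 (5.19%), and cal. res. lay above CORT at 3 (9%) and below at 6 (46.0%). Between the 2 ctrl. libraries the median site differed by 0.798 normal score units, against 0.284 in cal. res. and 0.393 in CORT, and without ctrl. replicate 1 the counts were 251, 1345 and 382, with Zbtb16 +39.1 kb (CORT against ctrl.) and Nr3c1 +29.1 kb (cal. res. against CORT) as the members among them. In region counts, both CORT libraries exceeded both of ctrl. at 2 of the 7 genes (9.91% of all genes), and they fell below at 0 (0.346%). Both cal. res. libraries exceeded both of ctrl. at 0 (0.957%) and fell below at 0 (4.87%).

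FOXO1, precipitated from cal. res. livers, overlapped 17 of the 81 member sites (13.9% of all sites) and 10 of the 14 listed in all 6 libraries (50.7% of such sites). It overlapped at least 1 site of each of the 6 genes that had sites, against 42.6% of all genes with a site and 31.2% of all genes. At Fkbp4 this was the -41.3 kb site alone, which was listed for GR only in CORT replicate 2. Each of the 6 genes had more sites than the median gene, and more sites give more chances to overlap. At 8 of the 12 summit positions shared by all 6 GR libraries at these genes, a FOXO1 summit lay within 50 bp, at distances from 8 to 41 bp, against 40.2% of the 6839 such positions in the genome. The FOXO1 peaks themselves ranged widely in strength, from percentile 99.4 at Zbtb16 +35.5 kb and 87.3 at Fkbp5 -35.7 kb to 1.03 at Nr3c1 +29.1 kb. The Fkbp5 -35.7 kb position was listed for GR in CORT replicate 2 alone, at percentile 26.03, and so in neither GR library of the group from which FOXO1 was precipitated.

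The annotated start is the one farthest upstream, so parts of the longer genes lay outside the window, and sites in the gene body or within 50 kb of another transcript start were added after the data had been seen. Sgk1 (ENSMUSG00000019970.15, chromosome 10, 21882184 to 21999903, plus strand) has 5 distinct transcript starts, the farthest 112 kb from the gene start. Around these, 6 further sites were found, 2 of them listed in all 6 libraries. The Sgk1 +111.7 kb site (chr10:21992885-21994887) is centred on an internal start and had percentiles of 95.4 and 91.0 for ctrl., 89.5 and 92.6 for cal. res. and 78.4 and 93.2 for CORT, with a full consensus GRE 4 bp from a summit. The +119.3 kb site, past the gene end, had 97.6 and 55.8 for ctrl., 95.5 and 92.6 for cal. res. and 81.6 and 92.9 for CORT, and overlapped FOXO1. The groups overlapped at both.

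The same held for the long introns of Fkbp5 and Zbtb16. Fkbp5 had 39 further sites, 7 of them listed in all libraries. Its +97.3 kb site (chr17:28418654-28421860), with a full consensus GRE 6 bp from a summit, stood at 99.2 and 99.4 for ctrl., 99.9 and 99.9 for cal. res. and 99.5 and 99.9 for CORT and overlapped FOXO1. Its +75.2 kb site, with the other full consensus GRE 2 bp from a summit, stood at 91.2 and 94.6 for ctrl., 98.0 and 98.4 for cal. res. and 98.6 and 99.3 for CORT. The 3 groups did not overlap there. Among all sites listed in all libraries, cal. res. lay wholly above ctrl. at 11.5% and wholly below CORT at 46.0%. In the same set, CORT lay wholly above ctrl. at 26.6%, and the share with this full order was not computed. The +97.3 kb and +75.2 kb sites were both among the 8097 tested, of which limma called 0 in each comparison.

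Zbtb16 had 42 further sites, and 4 of the 5 listed in all libraries were among the highest regions of every list. The +112.3 kb site (chr9:48722103-48725657) had percentiles of 99.99 and 99.92 for ctrl., 99.99 and 99.99 for cal. res. and 99.93 and 99.97 for CORT, above any site of Zbtb16 within 50 kb. Its mean percentile, 99.966, was also slightly above the 99.962 of the Fkbp5 -4.1 kb site. The +90.4 kb, +99.4 kb and +106.4 kb sites had percentiles between 99.4 and 99.9. All 4 overlapped FOXO1. Tsc22d3 had 16 further sites, 4 of them listed in all libraries, including +94.4 kb and +92.9 kb with a GRE 0 bp and 4 bp from a summit. Both of these lie past the gene end, 36.9 kb and 35.4 kb from the nearest Tsc22d3 start. At Nr3c1, the +88.5 kb site stood at 94.9 and 96.3 for ctrl., 95.0 and 93.0 for cal. res. and 95.1 and 92.0 for CORT, so the low cal. res. ranks of its +29.1 kb site were not shared by this stronger site of the same gene.

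**Figure D4:**
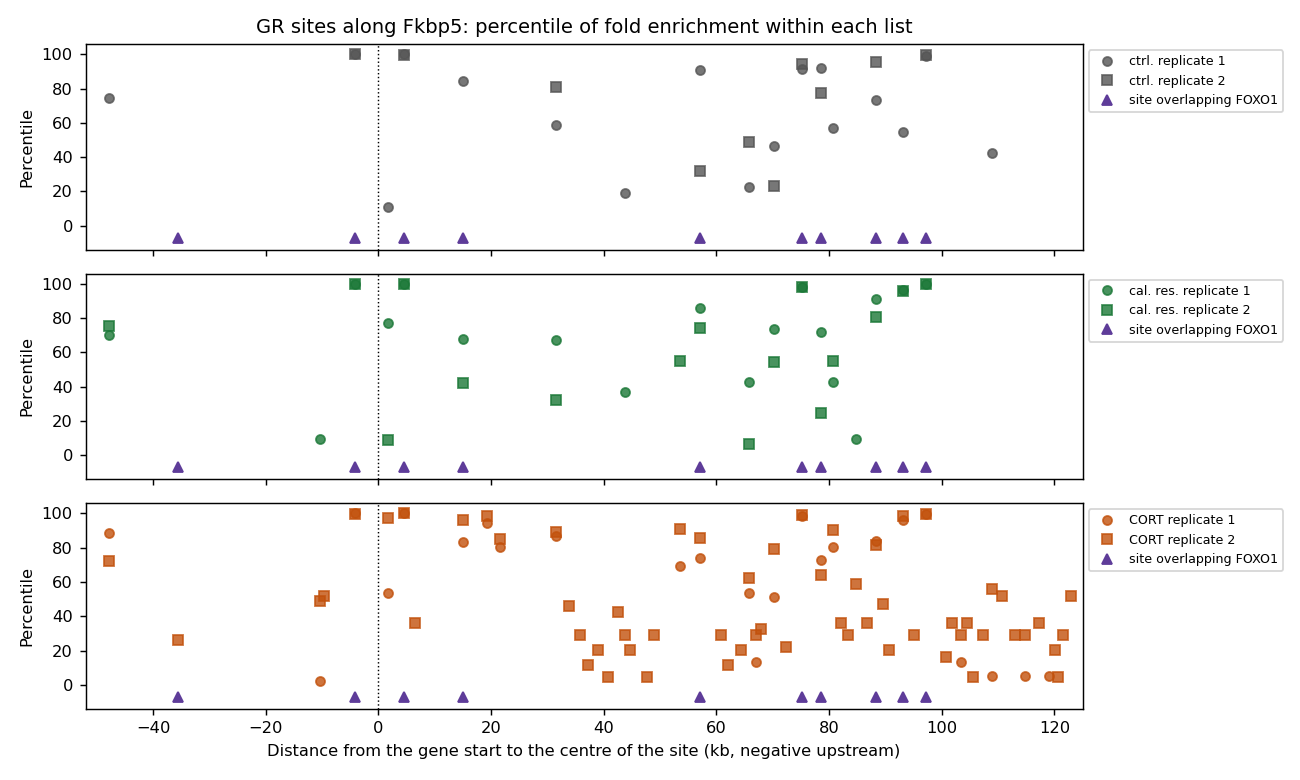
GR sites along Fkbp5, by distance from the gene start (kb) and percentile of fold enrichment within each list, with a panel per group. Sites near -4.1, +4.5, +75.2 and +97.3 kb stand at percentile 91.2 or higher in every library, and CORT alone lists the sites at +19.3 and +21.6 kb.

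Other genes of the pathway were read in the same way. Of 9 genes for HSP90, its partners and co-chaperones, ctrl. held a site near 9, cal. res. near 7 and CORT near 9 (48.6%, 47.2% and 60.9% of all genes), and Hsp90aa1, an HSP90 itself, and Cdc37, a kinase co-chaperone, were those without a cal. res. site. Of 9 genes for coregulators of the receptor, each group held a site near 8. Of 7 genes for hormone metabolism and transport, ctrl. and CORT held a site near 7 and cal. res. near 6, the exception being Abcb1a, a pump that exports steroids. Of 13 other classic targets, among them Per1, Dusp1 and Tat, every group held a site near all 13. FOXO1 overlapped a site near each, against 31.2% of all genes and 42.6% of genes with a site. These 13 genes had a median of 15 sites, against 3 over all genes, and more sites give more chances to overlap. CORT held more sites than ctrl. at 13 of those 13, among which Mt1 and Mt2 had the same counts. It also held more at 7 of the 9 chaperone genes, 5 of the 7 hormone genes and 5 of the 7 members. Of the 9 coregulator genes, CORT held more at 4 and fewer at 1. Of all 21938 genes, it held more at 10195 and fewer at 713.

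The genes whose pattern over the 6 libraries was most like that of a member were found from the percentiles of their regions, taken as fractions and summed in each library. Only protein-coding genes on chromosomes other than that of the member were compared. Sgk1, with no region within 50 kb of its annotated start, was left out. For Fkbp5 the sums were 5.46 and 4.08 for ctrl., 6.69 and 4.58 for cal. res. and 9.91 and 12.1 for CORT, and the closest gene was Mtss1, with a mean absolute difference of 0.470 over 6 libraries. For Fkbp4 the closest was Gna15 (0.237), for Hsd11b1 Lsm4 (0.396), for Tsc22d3 Gtf2ird2 and Rcc1l (0.164, tied) and for Zbtb16 Crat and Ptpa (0.320, tied). For Nr3c1, with sums of 2.25 and 1.36 for ctrl., 0.594 and 0.760 for cal. res. and 1.89 and 1.94 for CORT, Kcnk6 and Yif1b were tied (0.0920), and both had 2.32 and 1.10 for ctrl., 0.613 and 0.753 for cal. res. and 2.04 and 1.99 for CORT. The tied genes of each pair lie on the same chromosome and had identical sums in all 6 libraries. Whether they counted the same regions was not tested, so a pair need not be separate matches.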

How the data were processed

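GR ChIP-seq peak lists of 6 mouse liver libraries and 1 FOXO1 list were used. Labels gave the groups. Alignment by the authors to mm10 had used BWA, according to the study's methods. They then removed duplicates and multimappers reads, called peaks with MACS2 in each GR library and in the merged FOXO1 reads, and filtered blacklisted regions with bedtools. The main column of the deposited lists is fold enrichment, the ratio of pileup at the summit over background nearby. The p-value and q-value columns deposited by the authors hold −log10 values. The largest q-value lay between 0.0994 and 0.0998 in the GR lists and was 9.84e-06 in the FOXO1 list, so the lists differ in stringency.

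Where several rows shared an interval, the row of highest fold enrichment was kept. Regions sharing at least 1 bp were merged into sites. Peak ends on all 21 chromosomes lay within GRCm38. Genes came from GENCODE M21, whose 7 member symbols all matched, and other sequence from RefSeq. Ranks at the 8097 common sites were tested with limma (version 3.58.1, R 4.3.3) on normal scores in 1 fit of all 6 libraries, with Benjamini-Hochberg adjustment over all sites, and regions per gene with exact two-sided permutation tests. The fits were tested on simulated data first. The labels do not say whether the 2 libraries of a group came from separate animals, though the methods name 2 biological replicates.

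The text names the 7 members. Their sites were drawn mainly from the up to 5 of highest mean percentile, those listed in all 6 libraries and those overlapping FOXO1. Not every such site is named, and some sites outside this rule are. Members, gene lists and tests were chosen with earlier results of these data known. Sequence of chromosome 18 was not printed. Alternatives were other q-value limits, equal numbers of regions, other windows, ranking by p-value, log2 fold enrichment, short sites, other overlap and motif rules, the replicate number as a block, and leaving out each library. Computations ran in pandas 2.3.3 and NumPy 2.4.6 under Python 3.11.15, permutations in SciPy 1.17.1 and plots in matplotlib 3.10.9.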

Additional observations from a re-analysis of the deposited data

How the results depend on the processing

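Absence from a list depends on its length, so sites listed in few libraries are the least certain, and 2 libraries per group limit every comparison. For regions near Fkbp5 (both comparisons) and Zbtb16 (CORT), the direction held under all alternatives run.

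With q of at most 0.01 the cal. res. minus ctrl. difference at Hsd11b1 was 0. With q of at most 1e-05 the CORT minus ctrl. difference at Tsc22d3 was -0.5, ctrl. held 10 member sites, and limma called 2 sites for CORT against ctrl. and 2 for cal. res. against CORT. With equal numbers of regions the CORT differences were 0 at Fkbp4, -2 at Nr3c1 and -1 at Tsc22d3, the cal. res. difference was 0 at Tsc22d3, and cal. res. held 15 and CORT 19 member sites. In a window of 20 kb the differences were 0 at Fkbp4 (CORT), Nr3c1 (cal. res.) and Zbtb16 (cal. res.), ctrl., cal. res. and CORT held 8, 12 and 17 sites, and 6 overlapped FOXO1. In a window of 100 kb the cal. res. differences were 1 at Nr3c1, 2.5 at Tsc22d3 and -0.5 at Zbtb16, the CORT difference at Sgk1 was 0.5, the groups held 37, 62 and 81 sites, 34 overlapped FOXO1 and 10 held a GRE. With the gene body added the cal. res. differences were 1 at Nr3c1, 0.5 at Sgk1 and -1.5 at Zbtb16, the CORT difference at Sgk1 was 1, the groups held 33, 49 and 68 sites, 32 overlapped FOXO1 and 8 held a GRE. Around any transcript start, a window chosen after seeing the data, the cal. res. differences were 1.5 at Nr3c1, 0 at Hsd11b1, 3 at Tsc22d3 and 0.5 at Sgk1, the CORT difference at Sgk1 was 1.5, the groups held 31, 52 and 65 sites, 30 overlapped FOXO1 and 10 held a GRE.

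When either library sufficed, ctrl. held 45 member sites and CORT 72. FOXO1 rows above the median strength overlapped 8 sites. A GRE was found at 1 site by the full consensus with at most 2 mismatches, at 1 within 50 bp and at 6 in whole sites. With log2 fold enrichment limma called 5, 13 and 239 sites. With the name series as a term, also chosen after seeing the data, it called 250 for cal. res. against ctrl., and the Nr3c1 +29.1 kb difference of CORT from ctrl. was 0.049 in place of -0.05. The cause of these changes was not tested, beyond the wider or narrower windows and rules themselves.

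Leaving out each library, the cal. res. and CORT differences ranged from -3 to 0 and -1.5 to 6.5 at Fkbp4, from -1 to 0 and 0 to 1 at Nr3c1, from -4.5 to 5.5 and -4 to 6 at Hsd11b1, and from -3 to 1 and -0.5 to 3.5 at Tsc22d3, and the cal. res. difference at Zbtb16 from -1.5 to 4.5. With 1 library defining the group, ctrl. held 17 to 45 and CORT 39 to 65 sites. Limma called 0 to 251 sites for cal. res. against ctrl., 0 to 1345 for CORT against ctrl. and 0 to 382 for cal. res. against CORT, all of the calls without ctrl. replicate 1. The Nr3c1 +29.1 kb difference of CORT from ctrl. ranged from -0.16 to 0.05.

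Replicate numbers did not pair the libraries: deviations of same-numbered libraries correlated at 0.094, -0.087 and -0.115 for cal. res. with CORT, cal. res. with ctrl. and CORT with ctrl. With the replicate number as a block, limma called 0 sites in each comparison, and the mean differences in regions were as before, at 12 for Fkbp5 and 6 for Zbtb16 in CORT. With the ctrl. numbers crossed, a pairing added after seeing the data, the block gave 0 calls for CORT against ctrl., 1 for cal. res. against ctrl. and 55 for cal. res. against CORT, where the fit without a block gave 0 in each.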
